A study of Mus musculus with 10 samples.

Results

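The transcripts that differ without Id3 were measured in thymic invariant natural killer T (iNKT) cells of the earliest sorted stage, stage 1, whose cells lack CD44. The members were all probe sets with a log2 intensity above the median of the whole table, 5.78, on at least 2 of the 10 arrays of the series. That left 25061 of 45037 probe sets, of which 20942 are assigned to 1 gene and together cover 11951 genes. The comparison rests on 4 arrays: 2 of WT stage 1 cells and 2 of Id3KO stage 1 cells. The other 6 arrays, 3 each of WT and Id3KO stage 2 cells, entered the fit for its estimate of the spread. All mice were C57BL/6 and 6 weeks old, per the labels. The thymocytes of stage 1 were sorted as Tet+CD24-CD44-NK1.1- (binding the tetramer that marks iNKT cells), and those of stage 2 as Tet+CD24-CD44+NK1.1-. The Id3KO groups carry a knockout of Id3 in the whole mouse as far as the labels say: they name no allele, no Cre, no sex and no pooling of animals. Replicates are called biological.

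Id3 is a small nuclear protein that pairs with the E proteins, basic helix-loop-helix transcription factors such as E2A and HEB. The pair cannot bind DNA, so Id3 keeps E proteins off their target sequence, the E box. iNKT cells carry a semi-invariant T cell receptor that sees lipids on CD1d, and in the thymus they acquire effector programs that resemble those of helper T cells, named NKT1, NKT2 and NKT17. Whether loss of Id3 has changed transcripts before CD44 appears is the question this comparison addresses.

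Id3 itself was read by 1 probe set. Its intensities were 1289 and 1282 on the WT arrays and 65.4 and 63.4 on the Id3KO arrays, so both Id3KO arrays stood far below both WT arrays and little above the table median of 55.1. The difference was -4.32 ± 0.16 on the log2 scale (SE, limma adjusted p = 1.83e-05), or 19.97-fold. The sources used here do not say which bases were deleted, so the probe set may or may not cover them. The surface markers of the gate were read on the same arrays, except NK1.1 (Klrb1c), whose probe set is assigned to more than 1 gene and was not used here. Cd44 read 147 and 224 in WT stage 1 cells and 130.3 and 255 in Id3KO stage 1 cells, against 653 to 858 in WT stage 2 cells. CD24, which the gate excludes, has a probe set (Cd24a) that read 103 on WT array 1 and 44.6 to 58 on the other 3 stage 1 arrays. Of 8 measured T cell identity genes, Cd2 was called higher and none lower, and the median was -0.03. Among all genes 0.594% were called higher. Cd3e, a chain of the T cell receptor complex, read 554 and 533 in WT and 484 and 543 in Id3KO, an overlap. Thy1, a T cell surface protein, read 2625 and 2711 against 1215 and 1415, lower on both Id3KO arrays without passing (-1.02 ± 0.21, adjusted p = 0.0842). The groups did not overlap for 6 of the 8, against 43.7% of all genes.

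At stage 1, 115 probe sets of 79 genes were higher in Id3KO cells and 86 probe sets of 67 genes were lower at a limma adjusted p under 0.05. These are 0.459% and 0.343% of the probe sets tested. At least 2-fold differences made up 66 of the higher and 47 of the lower calls. The median called increase was 1.09 and the median called decrease -1.05 on the log2 scale. Most transcripts lay close to 0: the median over all genes was -0.022, and the quartiles over all probe sets were -0.12 and 0.12. With 1 probe set per gene, the one of highest mean intensity, 126 genes were called, 1.05% of those tested. Of these, 71 were higher (0.594%) and 55 lower (0.46%). The 2 arrays of each group did not overlap for any called probe set, but neither did they for 41.5% of all probe sets and 43.7% of all genes, so a lack of overlap on its own says little here. Among the higher calls 19 had a WT mean below the table median, and among the lower calls 14 had an Id3KO mean below it. No fold is given for those, because the dimmer group lies at background. Their log2 differences are between measured intensities, give no size of the change and no bound on it, and leave their rank by size unsettled. In all 2629 probe sets, the 201 called ones included, had an unadjusted p under 0.05.

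**Figure D1:**
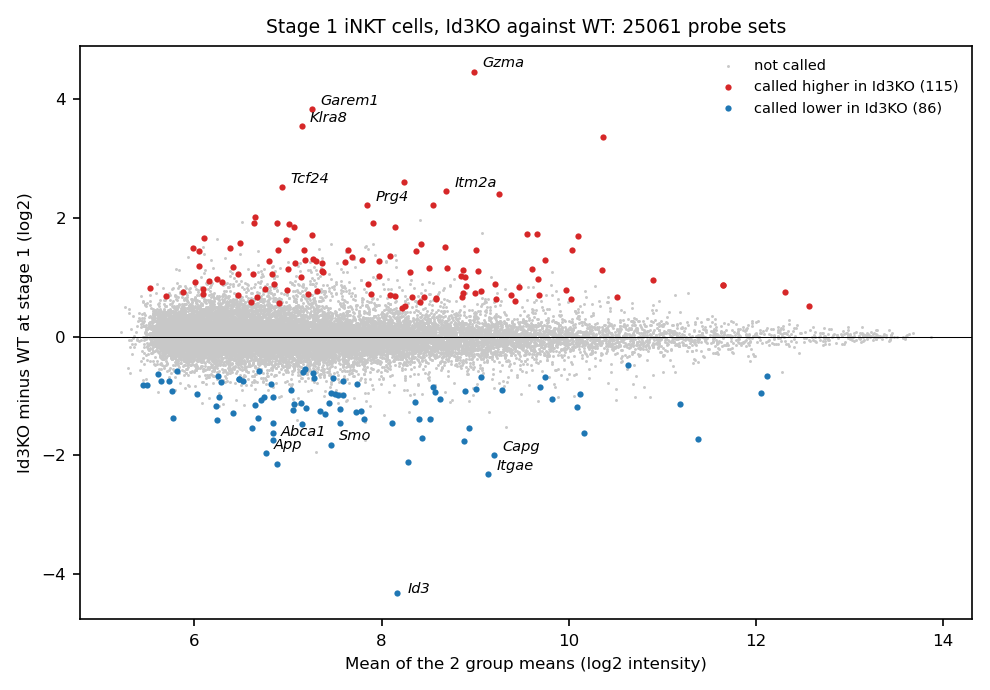
Each point is 1 of 25061 probe sets, with the mean of the WT and Id3KO stage 1 group means (log2 intensity) on the horizontal axis and Id3KO minus WT (log2) on the vertical axis; red and blue mark the 115 higher and 86 lower calls, and some named genes are labelled. Id3 lies alone at -4.32, Gzma lies at 4.46, and Garem1 (3.83) and Klra8 (3.54) were at background in WT.

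The number of calls depends on single arrays, because each group holds only 2. Without WT stage 1 array 1, 9 probe sets were called higher and 6 lower, and without WT stage 1 array 2, 18 and 15. Without Id3KO stage 1 array 1 the counts were 38 and 27, and without Id3KO stage 1 array 2 they were 49 and 23. Without WT stage 2 array 2 there were 76 and 46, and without WT stage 2 array 3 there were 72 and 54. Each of these fits still covers all tested probe sets. With each of the 10 arrays left out in turn, 9 higher probe sets stayed called throughout: those of Gzma, Garem1, Ubxn11 and Mgst2, 2 each of Pde2a and Atp1b1, and 1 without a single gene. The 6 lower ones were those of Id3, Capg, Lmo4 and Rxra and 2 of Rora. Of the 41 genes named by rule below, 34 lost their call without WT stage 1 array 1, 31 without WT stage 1 array 2, 22 without Id3KO stage 1 array 1 and 26 without Id3KO stage 1 array 2. Between 10 and 14 lost it without 1 of the WT stage 2 arrays, and 2 without each Id3KO stage 2 array. The 7 that kept it throughout were Id3, Gzma, Garem1, Ubxn11, Capg, Lmo4 and Rora, and the direction of all 41 was the same in every such fit. Among the 35 called genes of the lists, 6 kept their call throughout: Id3, Gzma, Capg, Lmo4, Rora and Rxra.

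Because Id3 restrains E proteins, the sequence before the start of the genes that differed was searched for E boxes. The first 3 higher and first 3 lower named genes, by size, with such a motif in the 250 bases before the start are printed here. Sequences are from RefSeq (GRCm38.p6), 5′ to 3′ on the gene's strand, with E boxes in capitals: CAGCTG, then CACCTG and its reverse complement, CAGGTG. The files name no genome build, and the sequences were matched by gene.
Gzma, chr13:113100982-113101231 (- strand): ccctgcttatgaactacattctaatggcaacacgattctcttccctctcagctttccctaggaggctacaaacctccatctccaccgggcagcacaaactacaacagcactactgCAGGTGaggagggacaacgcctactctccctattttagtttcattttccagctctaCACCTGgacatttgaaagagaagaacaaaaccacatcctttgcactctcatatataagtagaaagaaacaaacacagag
Itm2a, chrX:107403361-107403610 (- strand): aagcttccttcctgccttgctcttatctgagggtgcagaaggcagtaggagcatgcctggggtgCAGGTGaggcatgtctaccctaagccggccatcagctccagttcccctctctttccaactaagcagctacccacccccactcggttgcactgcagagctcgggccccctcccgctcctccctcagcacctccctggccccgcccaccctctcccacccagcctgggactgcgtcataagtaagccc
Stc2, chr11:31370062-31370311 (- strand): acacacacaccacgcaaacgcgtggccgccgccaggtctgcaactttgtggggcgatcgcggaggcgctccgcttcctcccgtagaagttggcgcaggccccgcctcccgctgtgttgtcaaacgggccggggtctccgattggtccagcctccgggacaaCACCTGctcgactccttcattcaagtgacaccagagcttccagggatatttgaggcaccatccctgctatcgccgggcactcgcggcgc
Capg, chr6:72549397-72549646 (+ strand): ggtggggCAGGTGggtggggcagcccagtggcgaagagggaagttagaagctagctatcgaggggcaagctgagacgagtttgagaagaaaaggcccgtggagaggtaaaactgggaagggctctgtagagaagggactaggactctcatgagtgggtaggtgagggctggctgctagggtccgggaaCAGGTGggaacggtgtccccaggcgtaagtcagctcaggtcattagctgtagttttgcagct
App, chr16:85173708-85173957 (- strand): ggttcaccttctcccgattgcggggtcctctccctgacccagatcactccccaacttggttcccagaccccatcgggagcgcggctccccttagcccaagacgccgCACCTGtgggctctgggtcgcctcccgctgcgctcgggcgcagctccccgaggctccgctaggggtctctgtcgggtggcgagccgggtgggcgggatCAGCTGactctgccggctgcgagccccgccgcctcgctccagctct
Lgals3, chr14:47373610-47373859 (+ strand): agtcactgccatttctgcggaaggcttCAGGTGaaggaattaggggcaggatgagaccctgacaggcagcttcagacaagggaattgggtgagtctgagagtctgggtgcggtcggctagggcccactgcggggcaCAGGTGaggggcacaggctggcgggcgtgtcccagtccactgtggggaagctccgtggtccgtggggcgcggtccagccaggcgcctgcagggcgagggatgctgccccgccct
In Gzma the motifs begin 135 and 79 bases before the start, in Itm2a 186 bases and in Stc2 89 bases before it. In Capg they begin 243 and 62 bases before it, in App 144 and 46, and in Lgals3 223 and 114. These 6 were picked for having a motif. Without that choice, 6 of the 14 higher and 7 of the 17 lower named genes with a RefSeq window had a motif in the 250 bases before a start.

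Motifs were counted on both strands in windows from 250 bases before to 50 bases after the start, 300 bases in all. CAGCTG is its own reverse complement, CACCTG and CAGGTG are each other's, and all are cases of the general E box, CANNTG. Any of the 3 stood in 34.1% of 91 windows of the higher genes, 28.6% of 70 windows of the lower genes and 31.1% of 12335 windows of all genes tested. CACCTG or CAGGTG stood in 25.3%, 17.1% and 18.7% of these windows, and CAGCTG in 13.2%, 18.6% and 15.6%. CANNTG stood in 80.2%, 61.4% and 64.5%. The shares in genes that differed lay on both sides of those in all genes. Windows were matched for 65 of the 79 higher genes, 48 of the 67 lower genes and 9650 of the 11951 tested. A match describes the letters in the window and does not show that a factor binds there.

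Gzma, a cytotoxic granule gene, had the largest increase among the named genes. It encodes the protease granzyme A and read 86.4 and 136 in WT and 3355 and 1702 in Id3KO cells. Both Id3KO arrays were far above both WT arrays, array 1 the higher (4.46 ± 0.36 log2, SE, limma adjusted p = 0.00251, 22.1-fold). Klra8, the activating natural killer (NK) cell receptor Ly49H, read 44.2 and 38.9 in WT, which is background, and 676 and 345 in Id3KO (3.54 ± 0.34, adjusted p = 0.00417). Its probe set is one of those (suffix x) that may also detect related Klra transcripts. The rest of both lists did not follow: of 18 measured granule genes Gzma was the 1 called higher and none was called lower, with a list median of -0.08. Over all genes 0.594% were called higher. Of 13 measured NK receptors Klra8 was the 1 called, with a median of 0.08, against -0.022 for all genes.

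The markers of NK cells summed to 360 and 384 in WT and 4388 and 2321 in Id3KO cells, in Id3KO most of it Gzma and Klra8. These were the 2 called of the 6 measured ones, against 0.594% of all genes called higher. The brightest probe set of each of the other NK markers was not called: Eomes was at 1.33, Klre1 at 0.33, Itga2 at 0.04 and Prf1 at -0.01. A dimmer probe set of Eomes was called higher, at 1.44 (limma adjusted p = 0.0118). A sorted population yields 1 value per transcript, so more cells with a transcript and more of it per cell cannot be told apart, here and in all results that follow. The part of NK cells in the rise of Gzma and Klra8 was not tested.

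Tcf24, a basic helix-loop-helix factor, read 48.1 and 54.5 in WT, at background, and 243 and 354 in Id3KO (2.52 ± 0.37 log2, SE, limma adjusted p = 0.0232). Gfi1, a zinc finger repressor of lymphoid development, rose from 126 and 115 to 323 and 342 (1.46 ± 0.23, adjusted p = 0.02999), and its 2 Id3KO arrays lay closely together. Klf9, a Krüppel-like factor, rose from 82.8 and 85.6 to 303 and 253 (1.72 ± 0.20, adjusted p = 0.01004). Its 2 dimmer probe sets pointed the same way, at 0.89 and 0.60, and were not called. Mef2c, a MADS box factor, read 47.4 and 51.8 in WT and 146 and 134 in Id3KO (1.49 ± 0.25, adjusted p = 0.0378). Of its 4 other probe sets 2 were called higher and none lower. Eomes, a T-box factor, has 2 probe sets that split at the threshold: the dimmer rose from 40.7 and 39.9 to 123 and 97.1 (1.44 ± 0.17, adjusted p = 0.0118), and the brighter read 51.1 and 50.3 against 164 and 99 (1.33 ± 0.29, adjusted p = 0.0929).

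Among the factors that fell, Rora, the nuclear receptor ROR alpha, read 192 and 186 in WT and 64.6 and 73.5 in Id3KO cells (-1.45 ± 0.13 log2, SE, limma adjusted p = 0.00303). Of its 5 other probe sets 4 were called lower, and the last was at -0.96 (adjusted p = 0.0733). Runx3, a Runt factor of the CD8 and NK lineages, fell from 254 and 274 to 125 and 92.2 (-1.30 ± 0.15, adjusted p = 0.01004), and its dimmer probe set was at -0.14 and not called. Lmo4, a LIM-only cofactor, fell from 635 and 618 to 169.98 and 214 (-1.72 ± 0.13, adjusted p = 0.00251), while Lmo2, a related LIM-only cofactor that binds E protein complexes in early blood cells, rose from 90.2 and 79.6 to 149.8 and 163 (0.89 ± 0.12, adjusted p = 0.0155). Maf (-1.05), Fli1 (-0.98), Ahr (-0.97) and the retinoid receptor Rxra (-1.26) also fell. Ikzf3, the Ikaros family factor Aiolos, read 353 and 389 in WT and 189.9 and 99.7 in Id3KO, and its difference of -1.43 ± 0.27 did not pass (adjusted p = 0.0636).

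The list of T lineage factors held 30 measured genes, of which Gfi1 was called higher and Runx3 lower, with a median of -0.11. Bcl11b read 1400.3 and 1690.2 in WT against 1660.4 and 1470.5 in Id3KO, and Ikzf1 1274 and 1412 against 1348 and 1481, so the arrays of the groups overlapped for both. Myb, a factor of early T cells, had a called dimmer probe set (0.70, adjusted p = 0.0306) and a brighter one that did not pass (0.63, adjusted p = 0.0591). In the list of LIM-only proteins and helix-loop-helix partners, Tcf24 and Lmo2 were called higher and Lmo4 lower of 15 measured (median 0.02). For comparison with this list and that of T lineage factors, 0.594% of all genes were called higher and 0.46% lower.

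The E and Id protein family itself had 5 measured genes, and Id3 was the 1 called. Id2, the other Id protein of T cells, read 1832 and 1748 in WT and 1091 and 998 in Id3KO. Both Id3KO arrays were lower, by -0.78 ± 0.21 on the log2 scale, which did not pass (limma adjusted p = 0.186). For Tcf3, which encodes E2A, the values were 318 and 429 against 348 and 307, and for Tcf12, which encodes HEB, 475 and 593 against 519 and 477. The groups overlapped for both E protein genes, with differences of -0.18 and -0.09.

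Adhesion and surface proteins included the steepest decrease after Id3. Itgae, the alpha E chain of the CD103 integrin, read 1277 and 1235 in WT and 271 and 236 in Id3KO cells (-2.31 ± 0.26 log2, SE, limma adjusted p = 0.01004, 4.97-fold). Its dimmer probe set fell as well, by 2.11 on the log2 scale. F2r, the thrombin receptor, fell from 2052 and 1975 to 642 and 659.8 (-1.63 ± 0.16, adjusted p = 0.00432), and Nt5e, the ecto-nucleotidase CD73, from 553 and 545 to 209 and 209 (-1.39 ± 0.16, adjusted p = 0.0106). The arrays within each group were nearly level for both genes, and 2 dimmer probe sets of Nt5e were at 0.02 and -0.23 and not called. Ccr2, a chemokine receptor of inflammatory homing, fell from 844 and 859 to 429.5 and 482 (-0.90 ± 0.11, adjusted p = 0.0118). Smo, the transducer of Hedgehog signals, fell from 356 and 305 to 111 and 78.8 (-1.82 ± 0.25, adjusted p = 0.0155), and its other probe set by 1.24 on the log2 scale. It was the 1 called gene of 21 measured in the list of Hedgehog, Wnt and Notch genes, whose median was -0.12. Among all genes 0.46% were called lower.

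In the other direction, Itm2a, a transmembrane protein of developing T cells, rose from 172 and 181 to 898 and 1043 (2.45 ± 0.31 log2, SE, limma adjusted p = 0.013, 5.47-fold), and a dimmer probe set by 0.80. Chl1, a neural adhesion molecule of the L1 family, rose from 74.9 and 59.9 to 211 and 294 (1.89 ± 0.30, adjusted p = 0.0307). Cd2, a T cell adhesion receptor, rose from 587 and 471 to 1117 and 1199 (1.14 ± 0.18, adjusted p = 0.0306). Tfrc, the transferrin receptor, rose by 0.88 (adjusted p = 0.0241). Among 23 measured integrins and adhesion molecules, Chl1 and Cd2 were called higher and Itgae lower, and the list median was -0.02. The shares of all genes called were 0.594% higher and 0.46% lower. Itga4, the alpha 4 integrin chain, read 74.9 and 112 against 247 and 187 (1.23 ± 0.26) and did not pass (adjusted p = 0.085).

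**Figure D2:**
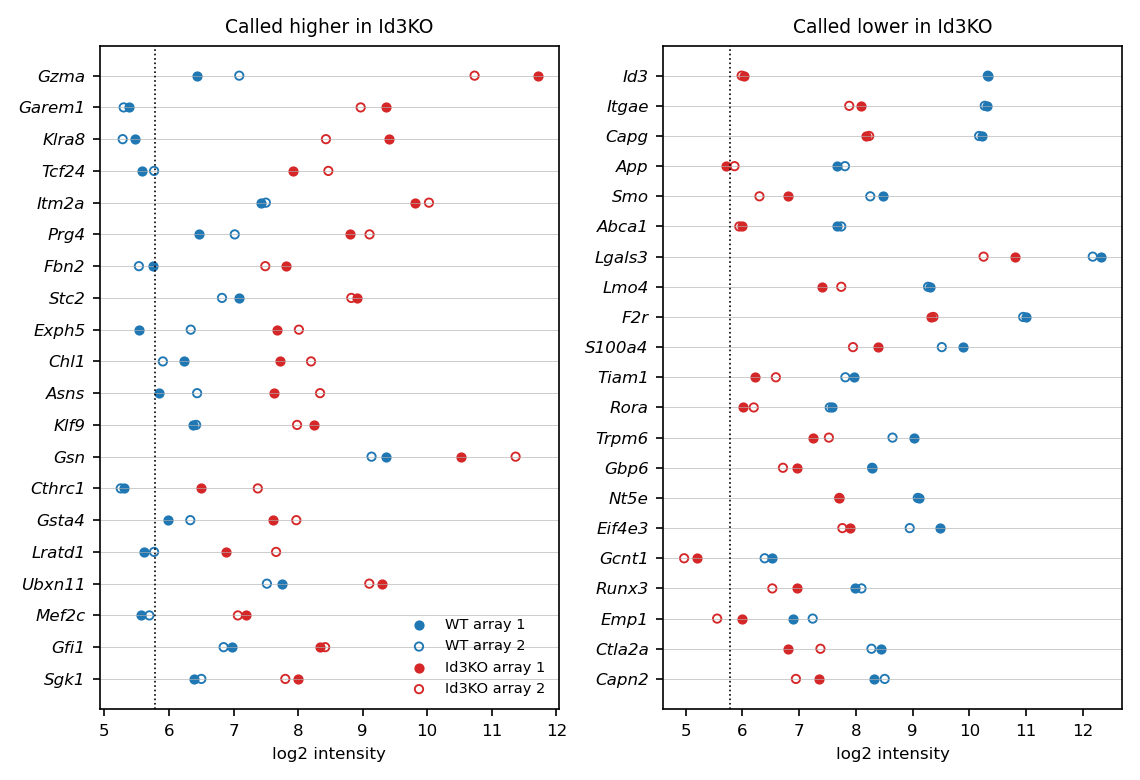
Log2 intensity of the 41 named genes on each of the 4 stage 1 arrays, with genes called higher in Id3KO on the left and lower on the right, WT arrays in blue, Id3KO arrays in red, and filled and open points for arrays 1 and 2; the dotted line is the table median of 5.78. The genes were chosen without overlap between groups; for Gzma, Klra8, Gsn and Lgals3 the 2 Id3KO arrays stand visibly apart.

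Of 36 measured actin-binding genes 3 were called, 1 higher and 2 lower, against 1.05% of all genes called either way. Capg, which caps actin filaments, fell from 1195 and 1153 to 288 and 301 (-1.99 ± 0.13 log2, SE, limma adjusted p = 0.00111, 3.99-fold). Gsn, gelsolin, which severs and caps the same filaments and belongs to the same protein family, rose from 661 and 563 to 1476 and 2644 (1.69 ± 0.29, adjusted p = 0.041). Of Gsn's 4 other probe sets 3 were called higher, at 1.72, 1.85 and 1.72. Lsp1, an actin-binding protein of leukocytes, fell by 0.96 on the log2 scale (adjusted p = 0.0465). The other 33 were not called, and the list median was -0.13. Actb, cytoplasmic beta actin, read 10871 and 11452 in WT against 11144 and 10649 in Id3KO, so its arrays overlapped. Tiam1, which activates the small GTPase Rac, fell from 249 and 225 to 74.8 and 96.3 (-1.48 ± 0.19, adjusted p = 0.013). Its 2 dimmer probe sets read at -0.04 and -0.05. Capn2, the calcium-activated protease calpain 2, fell from 319 and 364 to 164 and 123 (-1.26 ± 0.17, adjusted p = 0.0138).

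Lgals3, galectin 3, a sugar-binding lectin, fell from 5119 and 4619.98 to 1777 and 1218 (-1.72 ± 0.28 log2, SE, limma adjusted p = 0.0334). Lgals1, galectin 1, fell from 5999.5 and 5846 to 3533 and 2673 (-0.95 ± 0.14, adjusted p = 0.0217), and S100a4, a calcium-binding protein of motile cells, from 947 and 731 to 334 and 247 (-1.53 ± 0.26, adjusted p = 0.0385). Anxa6, a membrane-binding annexin, fell by 1.10. Of 20 measured genes these 4 were called lower and none higher, against 0.46% of all genes called lower. Of the 20, 17 lay below 0, and the median was -0.29 against -0.022 for all genes. Their summed intensity was 25551 and 24898 in WT and 16698 and 14889.8 in Id3KO. Not every member was low in Id3KO cells: Anxa5 was at 0.30 and Anxa7 at 0.35, neither called.

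Of 15 measured secreted and matrix genes, 3 were called higher and 1 lower, against 0.594% and 0.46% of all genes, and the list median was 0.04. Stc2, the secreted glycoprotein stanniocalcin 2, rose from 136 and 113 to 479.7 and 453 (1.91 ± 0.23 log2, SE, limma adjusted p = 0.0106). Prg4, the joint lubricant proteoglycan 4, rose from 88 and 129.6 to 445 and 551 (2.21 ± 0.38, adjusted p = 0.0399). Fbn2, the microfibril protein fibrillin 2, read 54 and 46.3 in WT and 225 and 179.9 in Id3KO (2.01 ± 0.21, adjusted p = 0.0054), and a dimmer probe set was called too, at 1.19. Cthrc1, a secreted collagen-repeat protein outside the list, read 39.3 and 38.1 against 90.2 and 166, with Id3KO array 2 the higher (1.66 ± 0.26, adjusted p = 0.0298). App, the amyloid precursor protein, went the other way, from 203 and 224 to 52.1 and 58.1 at background (-1.96 ± 0.31, adjusted p = 0.0316), and its dimmer probe set did not pass (-0.55). Another 13 genes of that list lay below the level for testing.

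Asns, asparagine synthetase, rose from 57.6 and 86.5 to 198 and 324 (1.84 ± 0.30 log2, SE, limma adjusted p = 0.0343), and its other probe set by 1.46. With Stc2 it made up the 2 called genes of 26 measured in the list of amino acid genes driven by the stress factor ATF4. Over all genes 0.594% were called higher. The rest of that list was not called, its median was 0.10, and Atf4 itself read 791 and 726 against 704 and 579. Phgdh, the first enzyme of serine synthesis, pointed the other way, from 2681 and 2872 to 1910.2 and 1753 (-0.60 ± 0.12), and did not pass (adjusted p = 0.0812). Of 16 measured glycolysis genes, each by its brightest probe set, limma called none, 3 had an unadjusted p under 0.05, and the median was 0.11. Of all 25061 probe sets tested, 2629 had an unadjusted p under 0.05.

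Glutathione enzymes were among the calls, and they are grouped here after their values were seen, as are the other genes of this paragraph and the next. Gsta4, a glutathione transferase, rose from 63.3 and 80.4 to 195 and 251 (1.63 ± 0.20 log2, SE, limma adjusted p = 0.013). Gstm1, another, rose from 72.2 and 70.7 to 143 and 209.6 (1.28 ± 0.22, adjusted p = 0.0382), and Mgst2, a microsomal one, from 946 and 835 to 2093 and 1770.2 (1.11 ± 0.11, adjusted p = 0.00431). Gstm1 had a second called probe set, at 1.18. Acly, which makes acetyl-CoA for lipid synthesis, had 2 called probe sets, at 1.15 and 0.88. The mitochondrial ketone enzyme Oxct1 was at 0.67 (adjusted p = 0.0242) and Pdk1, a kinase that holds back pyruvate dehydrogenase, at 0.76 (adjusted p = 0.0197).

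Signalling genes also differed. Sgk1, a kinase regulated by serum and glucocorticoids, rose from 83.9 and 90.5 to 255 and 223 (1.45 ± 0.17 log2, SE, limma adjusted p = 0.01004). Pde2a, which degrades cyclic nucleotides, rose from 682 and 593 to 1731 and 1748 (1.45 ± 0.11, adjusted p = 0.00251), and its second probe set by 1.26. Atp1b1, the beta subunit of the sodium pump, had 3 called probe sets, at 1.50, 1.15 and 0.74. Garem1, an adaptor of growth factor receptors, read 41.7 and 39.3 in WT, at background, and 659.7 and 501 in Id3KO (3.83 ± 0.31, adjusted p = 0.00251). Cytip, which regulates the adhesion signal of cytohesin, had 2 called probe sets at 0.95 and 0.87. In the other direction, Prkcb, protein kinase C beta, had 2 called probe sets, at -0.80 and -1.23, and Drosha, the nuclease that cuts primary microRNAs, fell from 5659 and 5484 to 3578 and 3489 (-0.66 ± 0.11, adjusted p = 0.0366), with a second probe set at -0.86. Tirap, an adaptor of Toll-like receptors, fell by 1.01 (adjusted p = 0.00415).

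Other named genes span several functions. Ubxn11, a UBX domain protein, rose from 216 and 183 to 631 and 549.6 (1.57 ± 0.13 log2, SE, limma adjusted p = 0.00251), while its 2 dimmer probe sets read at 0.04 and 0.11. Exph5, a Rab27 effector of vesicle traffic, read 46.2 and 80.8 against 203 and 258 (1.91), and Lratd1 49 and 54.5 against 118 and 202 (1.58). Trpm6, a magnesium channel, fell from 523 and 400.4 to 152 and 184 (-1.45), and its dimmer probe set was at -0.28 and not called. Eif4e3, a cap-binding protein, fell from 711 and 494 to 237 and 217 (-1.39), with a second probe set at -0.90 that was not called. Gcnt1, which builds branched O-glycans on surface proteins, read 91.7 and 84 in WT and 36.9 and 31.4 in Id3KO, where it was at background (-1.37), and its other probe set did not pass (-0.53). Gbp6, a GTPase induced by interferon, fell from 310.3 and 312 to 124 and 105 (-1.45), and its other probe set was called too, at -1.62. Emp1, a membrane protein, fell from 118 and 151 to 63.3 and 47 (-1.29), while its other probe set was at 0.00, and Ctla2a, an inhibitor of cathepsins, from 349 and 309.6 to 112 and 166 (-1.27). The values in brackets are log2 differences, and the adjusted p-values of these genes after Ubxn11 lay between 0.013 and 0.0498.

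Cholesterol efflux genes moved apart. Abca1, which exports cholesterol, fell from 203 and 214 to 63.4 and 61.6 (-1.74 ± 0.31 log2, SE, limma adjusted p = 0.0498). Rxra, the partner of the sterol sensor LXR, fell from 239.9 and 263 to 107 and 103 (-1.26 ± 0.10, adjusted p = 0.00251). Abca7, a related transporter, rose from 259 and 298 to 468 and 421 (0.67 ± 0.11, adjusted p = 0.0362). The other 10 of 13 measured genes of the list were not called and its median was -0.03. Among all genes 1.05% were called either way. Cholesterol synthesis genes had a median of 0.12 over 20 measured, and the 4 with an unadjusted p under 0.05 did not pass adjustment. Among all 25061 probe sets tested, 2629 had such an unadjusted p.

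Of 18 measured NKT17 genes, Itgae, Rora, Maf and Ahr were called lower and none higher, 17 of the 18 lay below 0, and the median was -0.58. Over all genes 0.46% were called lower and the median was -0.022. Ccr6, a chemokine receptor of NKT17 cells, was dim in both groups, at 73.1 and 62 against 57.9 and 58.8 (-0.21, not called). Il17a read 43.4 and 39.6 against 43.3 and 40.9 on a probe set below the level for testing. The lists were chosen with earlier results of these data known. Of 16 measured NKT1 genes Runx3 was the 1 called, lower, and the median was -0.23. Tbx21, the factor T-bet, read 306 and 371 against 237 and 158 and did not pass (-0.80 ± 0.23 log2, SE, limma adjusted p = 0.234). Of 11 NKT2 and type 2 genes Il13, a type 2 cytokine, was the 1 called, falling from 309.9 and 235 to 128 and 147 (-0.98 ± 0.15, adjusted p = 0.024). Zbtb16, which encodes the lineage factor PLZF, read 1205 and 1159 against 1106 and 949 (-0.21, adjusted p = 0.644). Of 17 measured follicular helper genes, Slamf6, a SLAM receptor, and Izumo1r, folate receptor 4, were called higher, against 0.594% of all genes. None was called lower, and 15 of the 17 lay above 0 with a median of 0.40. Tox2, a factor of follicular helper cells, read 709 and 544 against 1153 and 1512 and just missed the threshold (1.09 ± 0.20, adjusted p = 0.0505).

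**Figure D3:**
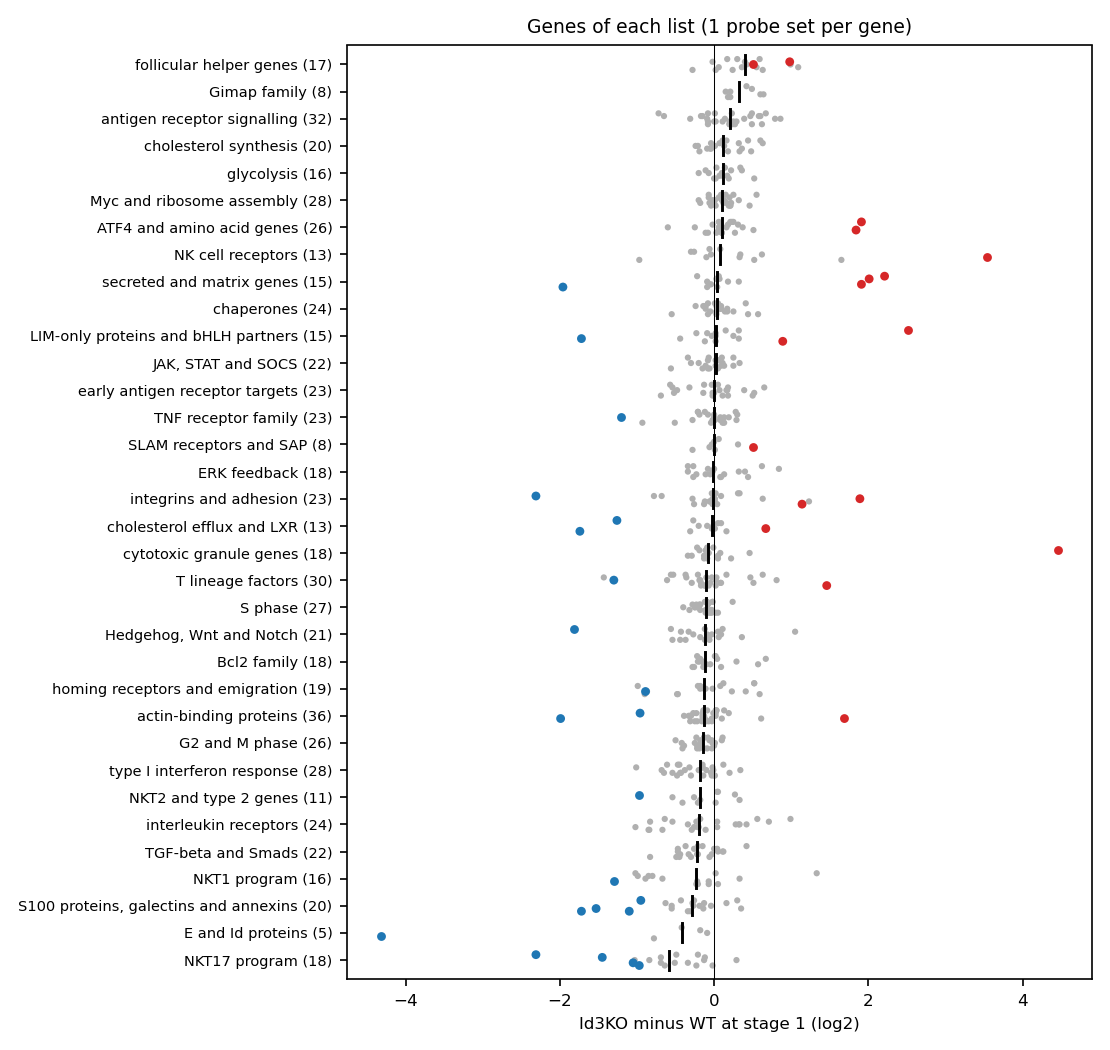
Each point is a measured gene of the list named at the left (number measured in brackets) at its Id3KO minus WT difference at stage 1 (log2), red for called higher, blue for called lower and grey for not called, with the list's median as a bar. NKT17 genes have the lowest median, -0.58, and follicular helper genes the highest, 0.40; a gene may stand in more than 1 list.

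The list medians were read against the arrays one at a time. Set against the WT mean, the NKT17 median was -0.58 on Id3KO array 1 and -0.68 on array 2, and the follicular helper median 0.38 and 0.46. Without WT array 1 the NKT17 median was -0.40, and without WT array 2 it was -0.81. The median of 26 G2 and M phase genes was -0.14, but it was -0.46 without WT array 1 and 0.20 without WT array 2, so it has no stable direction. Summed over these genes the 2 WT arrays read 9144 and 14910.3 and the 2 Id3KO arrays 9702 and 12093, an overlap.

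Antigen receptor signalling had 32 measured genes, none called at an adjusted p under 0.05, 13 with an unadjusted p under 0.05, and a median of 0.20 with 22 above 0. For comparison, 2629 of all 25061 probe sets tested had an unadjusted p under 0.05. Rasgrp1, which switches on Ras after receptor engagement, read 379.7 and 264 against 552 and 597 (0.86 ± 0.20 log2, SE, limma adjusted p = 0.114). Dgka, which removes the lipid signal Rasgrp1 needs, read 652 and 643 against 967 and 1018 (0.62 ± 0.12, adjusted p = 0.0627). Cd247, the zeta chain of the receptor complex, was at -0.65 ± 0.12 (adjusted p = 0.0578). Malt1 is listed at 0.49 by its brightest probe set, and a dimmer one was called, at 0.72 (adjusted p = 0.0193). All 8 measured Gimap genes, GTPases of lymphocyte survival, lay above 0, between 0.15 and 0.64, and none was called. The groups did not overlap for 6 of the 8, against 43.7% of all genes.

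Of 28 type I interferon response genes 23 lay below 0, none was called, 8 had an unadjusted p under 0.05, and the median was -0.18. For this list and those that follow, 2629 of all 25061 probe sets tested had an unadjusted p under 0.05. Ifit3, an interferon-induced antiviral protein, read 232 and 243 against 120.2 and 116 (-1.01 ± 0.32 log2, SE, limma adjusted p = 0.269). Of 24 interleukin receptor genes none was called, 10 had an unadjusted p under 0.05, and the median was -0.20. Il7r, the receptor for the survival cytokine interleukin 7, read 2412 and 2366 against 1274 and 1389 (-0.84 ± 0.26, adjusted p = 0.264). Il6st, the shared signal chain gp130, read 131 and 98.3 against 229 and 221 (0.99 ± 0.22, adjusted p = 0.093). Genes of TGF-beta signalling had a median of -0.22 over 22 measured, none called and 7 with an unadjusted p under 0.05. Of 23 TNF receptor family genes Tnfrsf25, death receptor 3, was the 1 called, falling from 208 and 235 to 87.6 and 105 (-1.21 ± 0.21, adjusted p = 0.0458). Among all genes 0.46% were called lower.

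Markers of other cell types were read on the same arrays. Myeloid markers summed to 3016 and 2830.2 in WT and 2154 and 1909.8 in Id3KO, most of it Ctss and Cst3, and Lyz2, a defining myeloid gene, lay at background on all 4 arrays (51 to 60.6). B cell markers summed to 1438 and 1169 in WT and 2009 and 2029.8 in Id3KO, most of it Ighm, while Cd79a (49.1 to 56.9) and Pax5 (53.8 to 59.6) lay at or near background. Ighm had a dimmer probe set called higher (1.11 ± 0.16 log2, SE, limma adjusted p = 0.0221). Thymic epithelial markers summed to 521 and 505 against 522 and 508, an overlap. Plasmacytoid markers summed to 3056 and 2599 against 3319.8 and 3646, with no gene called. Most of it was Ccr9, at 2264 and 1811 in WT and 2560.1 and 2837 in Id3KO, while Siglech (53.5 to 58.1) lay at or near background. The part of the myeloid and B cell markers in the other results was not tested.

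The same probe sets were set beside the comparison of Id3KO with WT at stage 2, which shares no array with that of stage 1. The labels do not say whether cells of both stages came from the same mice. Id3KO stage 1 array 2 correlated at 0.989 with Id3KO stage 2 array 1 and at 0.979 with Id3KO stage 1 array 1. The latter correlated at 0.983, 0.979 and 0.979 with Id3KO stage 2 arrays 1, 2 and 3. On the 16 genes furthest apart between the Id3KO stage 1 arrays, array 1 lay nearest to Id3KO stage 2 array 3 for 12. For the other 4 it lay nearest to stage 2 array 2. Id3KO stage 1 array 2 lay nearest to stage 2 array 1 for 10, array 2 for 4 and array 3 for 2. The 2 comparisons may therefore not be independent, which was not tested. At stage 2, 457 probe sets were called higher (1.82%) and 598 lower (2.39%), with 3 arrays a group. Of the 115 higher at stage 1, 99 were also called higher at stage 2, which is 86.1% of the stage 1 calls and 21.7% of the stage 2 calls. Of the 86 lower, 67 were also called lower, 77.9% and 11.2%. The sign was the same for 114 of the 115 and 84 of the 86. The median stage 2 difference was 0.93 over the probe sets higher at stage 1 and -0.93 over those lower. Probe sets were picked for their size at stage 1, so that sizes were larger there for 83 of the 115 and 55 of the 86 is read as no result. Both comparisons rest on 1 fit and 1 estimate of spread.

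The difference between the stages was tested itself, and limma called no probe set higher and none lower at an adjusted p under 0.05, with 1772 at an unadjusted p under 0.05 and a lowest adjusted p of 0.0644. Of the 201 probe sets called at stage 1, 58 had an unadjusted p under 0.05 in that test. The 201 were picked for their stage 1 difference, which is a part of that test, so this count is read as no result. Klf9 was at 1.72 at stage 1 and 0.56 ± 0.16 at stage 2, where it was not called (adjusted p = 0.101), and the difference had an adjusted p of 0.507. Lmo4 was at -1.72 and -0.93, Itgae at -2.31 and -3.83 and Runx3 at -1.30 and -2.09, with adjusted p-values of the difference of 0.507, 0.507 and 0.532. Ahr, a receptor for aromatic ligands, was at -0.97 at stage 1 and -2.32 at stage 2. Ogt, the enzyme that adds N-acetylglucosamine to nuclear proteins, was the 1 probe set called in opposite directions. It read 120.3 and 112 in WT and 186 and 196 in Id3KO at stage 1 (0.72 ± 0.11 log2, SE, adjusted p = 0.0269), and was at -0.42 at stage 2 (adjusted p = 0.0378), with an adjusted p of the difference of 0.227. Ccr2 was called at stage 1 and stood at -0.26 at stage 2 (adjusted p = 0.165).

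**Figure D4:**
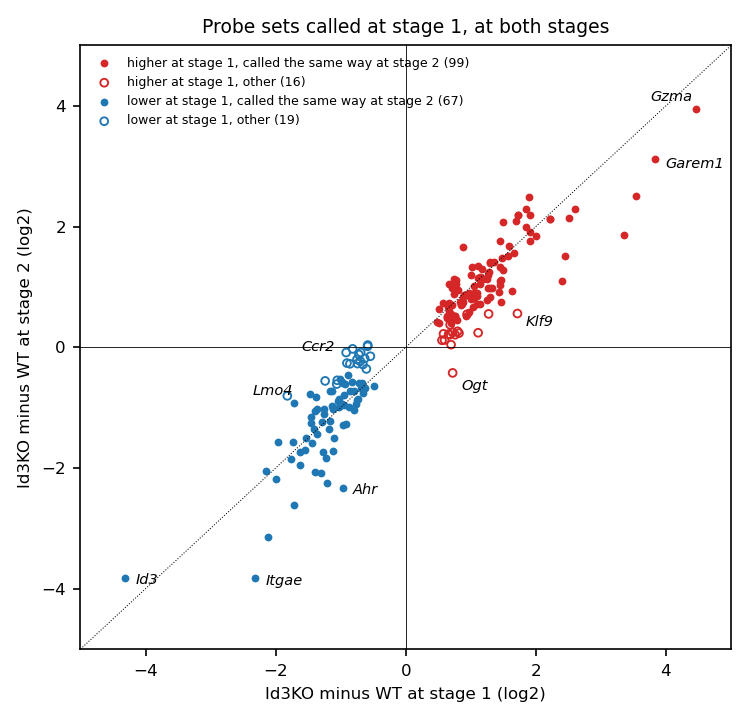
Id3KO minus WT (log2) at stage 1 on the horizontal axis and at stage 2 on the vertical axis for the probe sets called at stage 1, red for higher and blue for lower, filled where also called the same way at stage 2 (99 and 67), with the dotted line marking equal differences. Itgae and Ahr lie below the line, and Ogt is the red point below 0.

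The 2 Id3KO arrays differed more from each other than the 2 WT arrays did. Between the Id3KO arrays 334 probe sets (1.33% of those tested) differed at least 2-fold, 312 of them higher on array 1, and the correlation over all tested probe sets was 0.979. Between the WT arrays 51 (0.204%) did, with a correlation of 0.986. Of the 312, 74.4% have no gene in the annotation, against 14.1% of all tested. None of the 334 was called in the comparison with WT, against 0.459% of all probe sets called higher and 0.343% lower. The 334 were picked for a gap between the Id3KO arrays, which widens the error of that comparison, so this is read as no result. Mid1, a microtubule-associated ubiquitin ligase, read 1689.7 on Id3KO array 1 and 266 on array 2, against 159 and 186 in WT. Cd163l1, a scavenger receptor of gamma delta T cells, read 1547 and 366 against 1391 and 1634, so Id3KO array 1 was level with WT and array 2 was low. Nkg7, a cytotoxic granule protein, read 326 and 98.2, and Rpl39l, a ribosomal protein variant, 102 and 1056. Gamma delta T cell markers summed to 2879 and 1520.1 on the Id3KO arrays and 3239.7 and 3304 on the WT arrays. The Y-linked gene Eif2s3y read 32.4 and 268 on the Id3KO arrays and 275 and 153 in WT, Kdm5d, also Y-linked, 33.8 and 79.7 against 99.1 and 62.7, and Xist, the RNA of the inactive X chromosome, 3185 and 1627 against 1484 and 1891. Id3KO array 1 was thus lowest for Eif2s3y and Kdm5d and highest for Xist. On both WT arrays and on Id3KO array 2, Xist and Eif2s3y both lay above the table median of 55.1. Whether these samples held cells of mice of both sexes was not tested, nor was the part of sex in the differences.

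**Figure D5:**
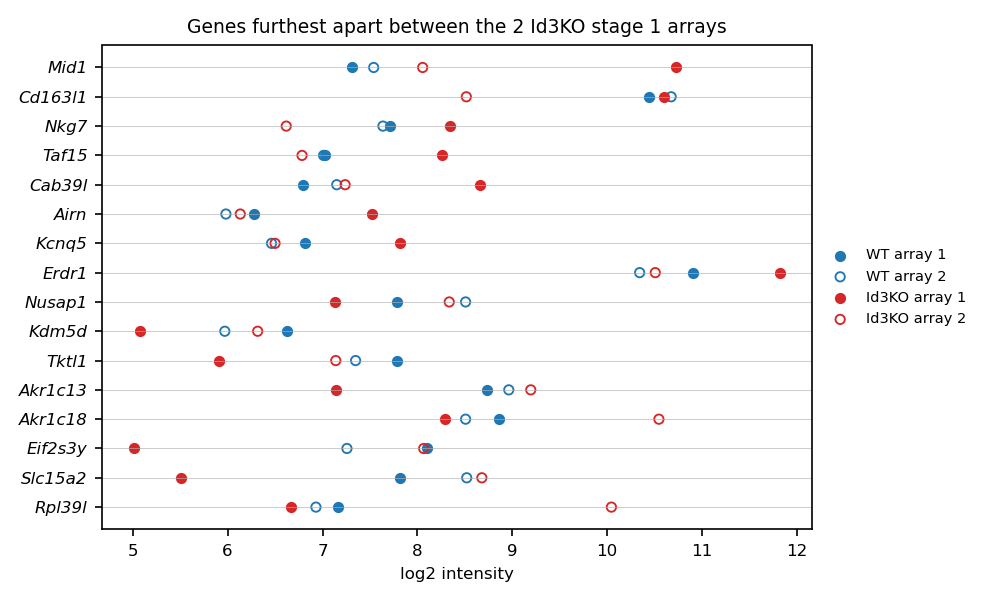
Log2 intensity on the 4 stage 1 arrays of the 8 genes furthest above and the 8 furthest below 0 in Id3KO array 1 minus Id3KO array 2, WT in blue and Id3KO in red, filled for array 1 and open for array 2. The genes were chosen for the distance between their red points, so that distance is a description and no test.

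Called genes also lay near Id3 on its own chromosome, 4. By the gene order of RefSeq, 6 tested genes lie between Id3 and Pnrc2 (-0.69 log2, limma adjusted p = 0.0498), 13 between Id3 and Runx3, 30 between Id3 and Sh3bgrl3 (-1.18, adjusted p = 0.01004), 31 between Id3 and Ubxn11, and 40 between Id3 and Padi3, a peptidyl arginine deiminase (1.05, adjusted p = 0.0159). Ubxn11 and Padi3 were higher and the others lower. Tnfrsf25, Hsdl2 and Abca1 lie further off on the chromosome, with 124, 355 and 378 tested genes between. By their brightest probe sets 8 of the 733 tested genes of chromosome 4, Id3 included, were called, 1.09%, against 1.05% of all genes. The neighbours above are listed by any called probe set, so not all of them are among these 8. That share covers the whole chromosome and does not describe the stretch around Id3. Pnrc2, Runx3, Sh3bgrl3, Ubxn11 and Padi3 lie there, with 6 to 40 tested genes between each and Id3. A share for that stretch was not computed. The labels name no allele, and a part of the targeted locus in these differences was not tested.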

How the data were processed

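RNA of sorted thymic iNKT cells was extracted with RNeasy Micro and hybridised to Affymetrix mouse arrays, per the labels. The deposited table holds 1 intensity per probe set and array, linear, after RMA by the authors, per the submitters' processing notes (version not given in the sources used here). Array medians lay between 54.8 and 55.5. Array data have no read depth, so the number of arrays limits the precision. Here log2 of these deposited intensities was used, whereas the design had foreseen log2 values in the file. RMA adjusts arrays to a common distribution, so a shift of most transcripts together would not be seen.

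A linear model with a mean for each of the 4 groups was fitted to the 10 arrays by limma 3.58.1 (R 4.3.3), tested on both sides (degrees of freedom: 6 residual, 2.80 prior). Benjamini-Hochberg adjustment covered the 25061 tested probe sets, and calls have an adjusted p under 0.05. Errors are the fit's standard errors. Labels do not say that animals were separate, so p-values measure the spread between these samples. Genes are named by the platform annotation (593 tested probe sets have several genes and 3526 none). Of 34945 probe sets with 1 gene, 34741 matched RefSeq.

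Named genes are Id3, then the 20 highest and 20 lowest differences among called probe sets of 1 gene whose groups do not overlap, 1 probe set per gene (highest mean over the 10 arrays), without gene models named only by a number. Members and lists were chosen with earlier results of these data known. The fit was run on simulated data with known changes and noise drawn independently for each value. Such data hold no effects shared by the probe sets of an array, so they cannot test for them. Alternatives were other filters, further quantile normalization, centring, an intensity trend, array weights, only the arrays compared, a replicate block, 1 probe set per gene, and each array left out.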

Additional observations from a re-analysis of the deposited data

How the results depend on the processing

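The counts of called probe sets depended most on which arrays entered. With only the arrays compared, 16 probe sets were called higher and 12 lower at stage 1, and 293 and 333 at stage 2, since fewer arrays estimate the spread. Leaving out each array in turn gave 9 to 127 higher and 6 to 107 lower at stage 1, and 238 to 409 higher and 264 to 491 lower at stage 2. For the difference between the stages, 0 to 1 probe sets were called higher when an array was left out. That count was 1 with no filter, 1 with the stricter filter, 1 with an intensity trend and robust prior, 2 with array weights and 2 with 1 probe set per gene, against 0. With the replicate number as a block, 54 were called higher and 45 lower at stage 1. The deviations of same-numbered WT and Id3KO stage 1 arrays correlated at -0.14 over probe sets. With 2 arrays a group the deviations mirror each other, so this value cannot show whether same-numbered samples are related. A block with the Id3KO stage 1 numbers crossed, added after the data were seen, gave 93 and 76. Filters, quantile normalization, centring, the trend, array weights and 1 probe set per gene kept the stage 1 counts between 87 and 152 higher and 61 and 121 lower. Over these alternatives none of the 55 genes followed, the 41 named ones and the other called genes of the lists, changed direction: 774 of their values kept their call and 324 lost it. Listed genes that were not called were not followed singly. For the list medians, 615 values moved by less than the spread between arrays and 65 by more. Some list medians near 0, such as that of the G2 and M phase genes, changed sign when 1 array was left out. With 2 arrays a group, differences under 0.48 (log2) were not called.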
